A study of Arabidopsis with 26 samples.

Results

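MINU2-only regions are stretches of the Arabidopsis genome where both peak lists named for the ATPase MINU2 held a peak and none of 4 lists named for the ATPases BRM and SYD did. They were chosen from the peaks themselves: the peaks of 6 lists on chromosomes 1 to 5 were merged wherever they overlapped by at least 1 bp, and 2516 of the 21697 merged regions met the rule. The 6 lists were named MINU2-GFP minu2-1 (2 lists), BRM-GFP brm-1 (2 lists) and SYD-N-GFP syd-5 (the lists numbered 3 and 4). The remaining 20 of the 26 deposited lists played no part in the choice, and the regions were described across them.

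SWI/SNF complexes use the energy of ATP to slide or evict nucleosomes and so open chromatin at genes. Arabidopsis builds them around alternative ATPases, BRM, SYD and the closely related pair MINU1 and MINU2. Published biochemistry places SWI3C with BRM, SWI3D with SYD, and BSH and SWI3A with the MINU proteins, while SWP73B, BCL7A and BCL7B are shared.

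All lists came from chromatin immunoprecipitation and sequencing (ChIP-seq) of 14-day-old seedlings with an antibody against green fluorescent protein (GFP), each line carrying a GFP fusion of a SWI/SNF subunit. By file name the 20 other lists comprised 1 each of BSH-GFP bsh, SWI3A-GFP swi3a-3, SWP73B-GFP swp73b-1, BCL7A-GFP bcl7a, BCL7B-GFP bcl7b, SWP73A-GFP swp73a-2 and SWI3C-GFP. The rest were SWI3D-GFP swi3d-1 (3 lists), SWI3D-GFP swi3d-1 syd-5 (2), BRM-GFP brm-1 syd-5 (2), SYD-N-GFP syd-5 brm-1 (2), SYD-N-GFP syd-5 swi3d-1 (2) and 2 further lists of SYD-N-GFP syd-5, numbered 1 and 2. Lower-case names are the mutant alleles in each background, and the SWI3C-GFP line has none in its name. The promoter behind each fusion is not given in the sources used here, and a whole seedling mixes many cell types.

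File names and sample labels stated different proteins for 17 of the 26 lists and the same protein for 9. The mutant background can differ even where the protein is the same: both lists named SYD-N-GFP syd-5 brm-1 carry the label SYD-GFP syd-5 swi3d-1. The SWI3A-GFP line is swi3a-3 in the file name and swi3a-1 in the labels. The 4 BRM and SYD lists of the rule were in accord on the protein. The labels number the 2 SYD lists replicates 1 and 2, not 3 and 4. Both lists named MINU2-GFP minu2-1 carry the label SYD-GFP syd-5 (replicates 3 and 4), so the word MINU2 rests on the file name alone. In 4 lists the peak names themselves contain syd-5, and the file name gave SYD-N-GFP for 4 of these 4 and the label a SYD-GFP line for 0 of 4. Every protein and background name used for a list is the one in the file name. In the reading by label, the MINU2 lists of the rule were replaced by those labelled MINU2-GFP minu2-1. The BRM and SYD lists of the rule were kept, so it is not the rule read wholly by label. The other lists were named by label. That reading left 147 regions, and the result for BSH and SWI3A did not hold, as given beside it.

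The lists held 4383 to 21329 peaks on the 5 chromosomes, and their sequencing depth is unknown. They fall into 2 sets, 12 lists that also hold peaks on the organelle genomes and 14 that hold none. Both MINU2 lists are in the set with organelle peaks and all BRM and SYD lists in the set without, so for membership itself set and protein cannot be told apart. Of the 20 other lists, 10 fall in each set. A region with no peak in a list was not called there, which does not show that it was unbound.

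Most MINU2-only regions had a peak in the full lists of BSH and SWI3A, the published partners of MINU2. BSH, a core subunit of the complex, had a peak at 2396 of the 2516 MINU2-only regions, or 95.2% (Wilson 95% interval 94.3% to 96.0%), against 79.4% of all merged regions. SWI3A, a scaffold subunit, had a peak at 2427, or 96.5% (95.7% to 97.1%), against 76.6% of all merged regions. At regions called in BRM alone the same shares were 9.05% for BSH and 15.2% for SWI3A, and at regions called in SYD alone 10.9% and 8.31%. The choice of those regions may partly fix these low shares, since it excluded MINU2 peaks and BSH and SWI3A are published partners of MINU2. The intervals cover counting error only, and each of these subunits has 1 list with no replicate. The shares depend on list length: BSH (19631 peaks), SWI3A (19263), SWP73B (21329), BCL7A (20795) and BCL7B (19877) are the 5 longest of the 20 lists, and the longest of the other 15 has 17283. With the 6 lists of the rule cut to their strongest 15375 peaks and each of the 20 to its strongest 4383, the shares were 29.6% for BSH and 37.3% for SWI3A. Read by label they were 21.8% and 49.0% of the 147 regions of that reading. BSH and SWI3A were not particular to MINU2-only regions among the MINU2 regions: at the 12732 regions that MINU2 shared with BRM or SYD their shares were 99.0% and 97.2%.

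The scaffold subunits of the other complexes were rarely called. SWI3C had a peak at 5.25% of the MINU2-only regions, against 46.8% of all merged regions. The 3 SWI3D-GFP swi3d-1 lists had one at 4.37%, 12.5% and 12.7%, against 49.6%, 62.5% and 63.2%. In the 2 SWI3D-GFP swi3d-1 syd-5 lists, where SYD is also mutated, the shares were 3.93% and 2.94%, against 33.4% and 27.5%. All 6 of these values lay far under the background of the list concerned. Members were narrower than all merged regions, with median widths of 589 and 817 bp, and the part of width in these values was not tested. The rule may partly fix these as well, since SWI3C and SWI3D are the published partners of BRM and SYD, whose peaks it excluded.

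The ATPase lists that the rule had not used were low as well, which the rule partly fixes, since they hold the same proteins as the lists it excluded. BRM-GFP brm-1 syd-5 gave 8.78% and 12.6%, against 62% and 66.9% of all merged regions. SYD-N-GFP syd-5 gave 9.66% and 17.0% in lists 1 and 2, against 66.8% and 73.2%. SYD-N-GFP syd-5 brm-1 gave 14.1% and 7.23%, against 61.9% and 53.7%, and SYD-N-GFP syd-5 swi3d-1, the shortest lists, gave 1.95% and 2.23%, against 20.5% and 17.2%. A peak in at least 1 of these 8 lists was found at 1005 members (39.9%), and 1511 (60.1%) had none. Few members were called in both replicates of a line: 92 (3.66%) in BRM-GFP brm-1 syd-5, 138 (5.48%) in SYD-N-GFP syd-5 lists 1 and 2, and 103 (4.09%) in SYD-N-GFP syd-5 brm-1.

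The BSH and SWI3A lists averaged 95.8% ± 0.871 (SD between these 2 proteins, n = 2). The 6 SWI3C and SWI3D lists averaged 6.95% ± 4.44 (SD, n = 6), a difference of 88.9 percentage points. The exact two-sided permutation p of 0.0714 is the smallest that 2 and 6 lists allow. These 6 are lists of published partners of the excluded ATPases, so this difference is not independent of the rule. Adding the 8 BRM and SYD lists gave 8.24% ± 4.95 (SD, n = 14), a difference of 87.6 points and an exact two-sided permutation p of 0.0167, the smallest that design allows. That p under 0.05 rests on lists of the proteins whose peaks the rule excluded, and on counting the lists of a line separately: with the lists averaged over each of 7 lines the exact permutation p was 0.0556. Cut to equal numbers of their strongest peaks, the lists differed by 32.8 points. Read by label, the difference was −2.14 points (exact permutation p = 0.933), and without the BSH or the SWI3A list it was 88.2 or 87.0 points, where the smallest exact permutation p is 0.133. BSH and SWI3A share the set with organelle peaks with both MINU2 lists. In that set the shares were 92.5% for SWP73B, 2.62% for SWP73A and 2.94% to 12.7% for SWI3C and SWI3D, and the part of the set in the difference was not tested.

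**Figure D1:**
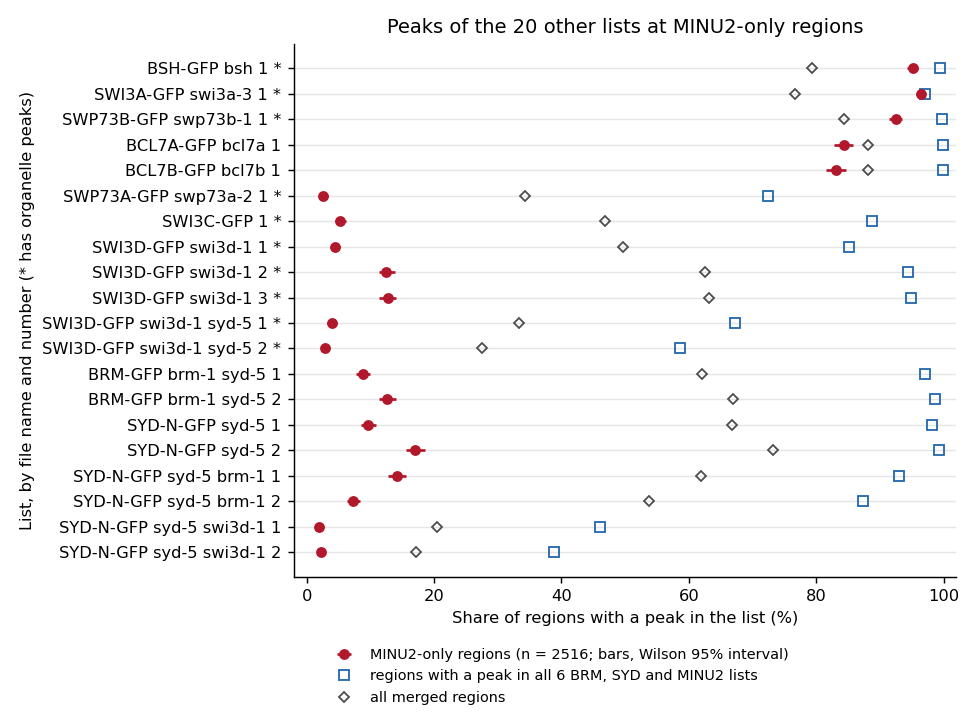
Share of regions (%, horizontal axis) with a peak in each of the 20 lists that the rule did not use (vertical axis, by file name and number, asterisk for organelle peaks); circles are MINU2-only regions with Wilson 95% intervals, squares regions called in all 6 ATPase lists, diamonds all merged regions. BSH, SWI3A, SWP73B, BCL7A and BCL7B lie between 83.1% and 96.5% at MINU2-only regions, and the other 15 lists between 1.95% and 17.0%.

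The subunits held in common were also frequent, but not more than elsewhere for BCL7A and BCL7B. SWP73B had a peak at 92.5% of MINU2-only regions (2328), against 84.3% of all merged regions. BCL7A had a peak at 84.3% (2121) and BCL7B at 83.1% (2092), against 88.2% of all merged regions for each, so both were near their background and slightly under it. These BCL7 lists belong to the set without organelle peaks. The paralog of SWP73B, SWP73A, had a peak at 2.62% of members (66), against 34.2%. SWP73B without SWP73A was the state of 2269 members (90.2%), the pair together that of 59 (2.34%), and SWP73A without SWP73B that of 7.

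Counted per region, 2340 members (93.0%) held both BSH and SWI3A, 87 SWI3A without BSH, 56 BSH without SWI3A, and 33 (1.31%) neither. All of BSH, SWI3A, SWP73B, BCL7A and BCL7B were called at 1852 members (73.6%). At 954 (37.9%) these 5 lists and no other of the 20 had a peak. The number of other lists with a peak had a median of 5 (quartiles 5 and 6), and 1028 members (40.9%) stood at exactly 5, whereas regions called in all 6 ATPase lists had a median of 18. Only 146 members (5.8%) reached 10 or more lists, and 10 members had a peak in none.

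**Figure D2:**
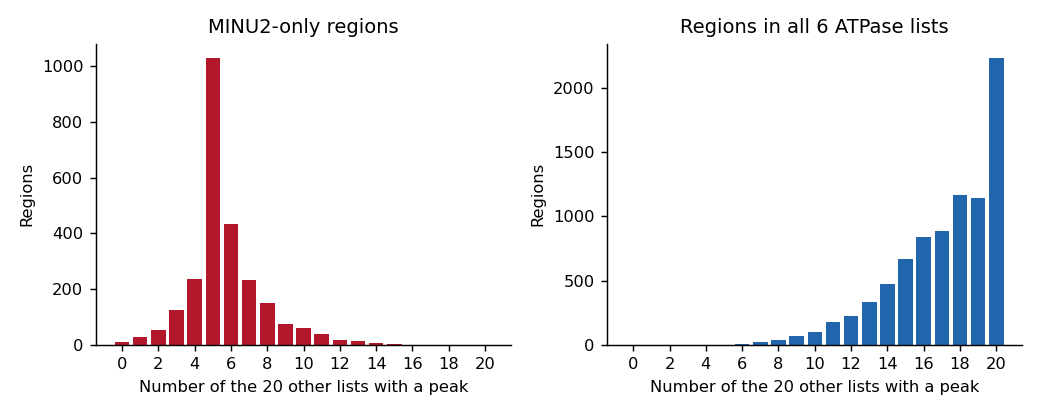
Number of regions (vertical axes) by how many of the 20 other lists had a peak (horizontal axes), for MINU2-only regions (left) and regions called in all 6 ATPase lists (right). MINU2-only regions pile up at 5 lists (1028 regions), and regions called in all 6 lists at 20 (2229 regions).

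MINU2-only peaks lay near the middle of the MINU2 lists and ranked under the MINU2 peaks of shared regions. Fold enrichment over background, as the authors' peak caller gave it, had a median of 3.29 (1.59 to 11.7) in MINU2 list 1 and 3.42 (1.46 to 12.6) in list 2. Regions that MINU2 shared with BRM or SYD had medians of 3.44 and 3.55. Ranked by −log10 q within each list, the median member stood at the 48.7th percentile in list 1 and the 52.7th in list 2, against 57.4 and 60.1 for the shared regions. The top 10% of each list by −log10 q held 214 (8.51%) and 237 (9.42%) of the members, against 1535 (12.1%) and 1633 (12.8%) of the shared regions. The bottom 10% held 191 (7.59%) and 155 (6.16%) of the members, against 690 (5.42%) and 457 (3.59%). These values come from the lists that chose the members and are a description. Each region was described by its strongest peak in a list by −log10 q, and a wider region can hold several peaks. Shared regions were wider, as given below, and the part of this in the differences was not tested. The replicates ranked the members alike, with a Spearman correlation of fold enrichment of 0.88 over 2516 regions and a median of 36 bp between their summits.

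The regions were compact. Their median width was 589 bp (298 to 2792 bp), against 1040 bp for regions that MINU2 shared with BRM or SYD and 1400 bp for regions called in all 6 lists. Merging more lists widens a region. The strongest MINU2 peak of a region was also narrower, with medians of 509 and 550 bp at members, against 654 and 700 bp at shared regions. Most members stood clear of the excluded ATPases: the nearest BRM or SYD peak edge was at a median of 2762 bp (quartiles 1572 and 4787 bp), with 100 members (3.97%) within 500 bp of one and 578 (23.0%) over 5000 bp away. Chromosomes 1 to 5 held 647, 422, 479, 395 and 573 members, or 15.8% to 18.1% of the regions called in both MINU2 lists on each.

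The limits of the rule show in single regions. The weakest members were chr5:25055886-25056407 at SMC2, a condensin gene, with −log10 q of 2.28 and 1.75 in the MINU2 lists, and chr5:24603236-24603759 at AT5G61140, with 2.28 and 2.04. Just outside were strong MINU2 regions with a peak in 1 of the 4 BRM and SYD lists. At SR34, which encodes a splicing factor, the region chr1:626380-627209 had MINU2 folds of 9.92 and 10.5 and a peak of fold 2.47 in BRM list 1, and chr5:11707965-11709163 had 7.20 and 7.08 and a peak of fold 1.53 in a SYD list. The weakest peaks that kept a region out had −log10 q of 1.36, at chr2:14458759-14459218, and 1.37, at chr1:21430171-21431219, close to the limit of 1.301 that corresponds to a q of 0.05.

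The strength of the peaks that other lists had at members differed between lists. At members the BSH peaks had a median fold of 3.82, against 3.35 over the whole BSH list, and the SWI3A peaks 4.25, against 3.46. SWP73B peaks had the same median at members and over the list, 3.23. BCL7A peaks had 2.71, against 3.12, and BCL7B peaks 2.80, against 3.51. The few BRM-GFP brm-1 syd-5 peaks were weak, with medians of 1.93 and 1.97, against 2.66 and 2.71 over their lists, and so were the SYD-N-GFP syd-5 peaks, with 2.11 and 2.18, against 3.28 and 3.30. SWI3C peaks had 2.24, against 2.83.

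The fold at a member in BSH and SWI3A followed the fold in MINU2. The Spearman correlation with MINU2 lists 1 and 2 was 0.85 and 0.88 for BSH over 2396 regions, 0.84 and 0.87 for SWI3A over 2427, and 0.78 and 0.80 for SWP73B over 2328. For BCL7A it was 0.67 with each list over 2121 regions, and for BCL7B 0.60 and 0.61 over 2092. Among the 428 members with a SYD-N-GFP syd-5 list 2 peak it was −0.03 with MINU2 list 1, and among the 318 with a BRM-GFP brm-1 syd-5 list 2 peak 0.04. Other lists with organelle peaks, called at fewer members, varied. With MINU2 lists 1 and 2 the values were 0.73 and 0.69 for SWP73A over 66 regions and 0.53 and 0.48 for SWI3C over 132. SWI3D-GFP swi3d-1 gave 0.66 and 0.63 in list 1 over 110 regions. In its list 2 they were 0.28 and 0.29 over 315, and in list 3 0.26 and 0.24 over 319. SWI3D-GFP swi3d-1 syd-5 gave 0.55 and 0.58 in list 1 over 99, and 0.45 and 0.38 in list 2 over 74. A high correlation was thus found in some lists of other subunits too. The points are regions of the same libraries, and MINU2, BSH, SWI3A and SWP73B share the set with organelle peaks. The median distance from the MINU2 summit was 32 bp for BSH and SWI3A, 35 bp for SWP73B and 42 to 43 bp for the BCL7 lists. For SWP73A it was 41.5 bp and for SWI3C 46.5 bp. SWI3D-GFP swi3d-1 lists 1, 2 and 3 had 48, 75 and 68 bp, and SWI3D-GFP swi3d-1 syd-5 lists 1 and 2 had 86 and 64.5 bp. For BRM-GFP brm-1 syd-5 it was 77 to 83 bp.

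**Figure D3:**
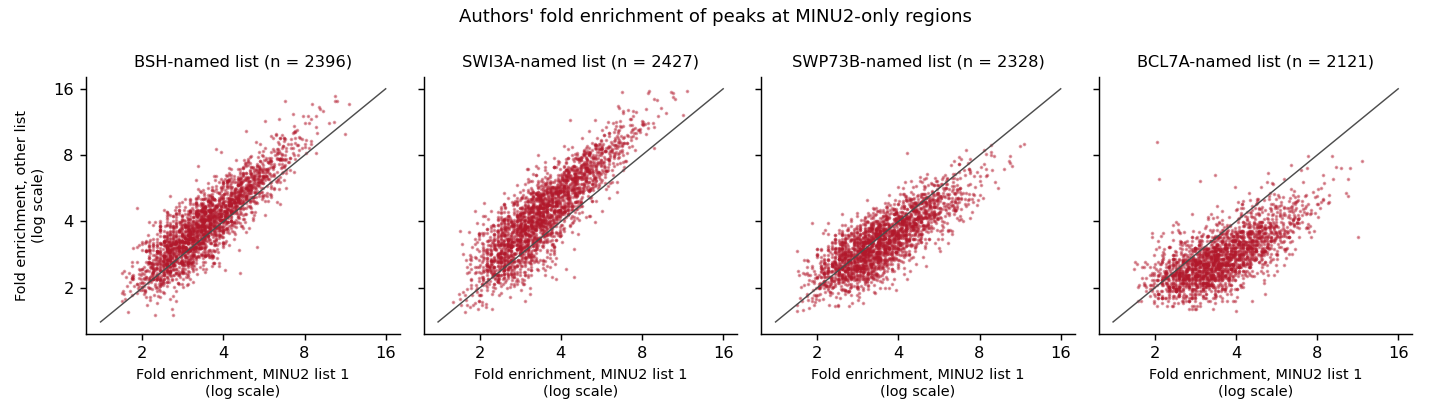
Authors' fold enrichment of the peak in MINU2 list 1 (horizontal axes, log scale) and in the BSH, SWI3A, SWP73B and BCL7A lists (vertical axes, log scale) at the MINU2-only regions with a peak in that list; each point is a region and the line marks equal values. Points rise together in each panel, mostly over the line for BSH and SWI3A and under it for BCL7A.

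The members missing from the partner lists were mostly weak MINU2 regions. In 4 equal groups of 629 members from the weakest to the strongest by −log10 q, the BSH share was 83.6%, 97.9%, 99.4% and 100%, and the SWI3A share 88.4%, 97.6%, 99.8% and 100%. BCL7A went through 61.4%, 82.5%, 95.2% and 98.1%. Lists of the excluded ATPases were also highest in the strongest group: BRM-GFP brm-1 syd-5 had 6.36%, 7.31%, 9.38% and 12.1% in list 1 and 10.7%, 10.7%, 12.9% and 16.4% in list 2, and SYD-N-GFP syd-5 list 2 had 15.3%, 14.1%, 17.0% and 21.6%. SWI3D-GFP swi3d-1 list 3 had 15.7%, 11.9%, 9.86% and 13.2%.

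MINU2-only regions sat at the ends of genes. Gene positions came from the RefSeq gene table for TAIR10.1, which gives no strand, so a start and an end could not be told apart. The summit lay within 250 bp of an end of a protein-coding gene at 2160 members (85.9%), against 63% of all merged regions, 72.4% of regions that MINU2 shared with BRM or SYD, 34.5% of BRM-only and 26.2% of SYD-only regions. The median distance was 85 bp, against 161 bp for all merged regions, 344 bp for the 409 BRM-only and 755 bp for the 385 SYD-only regions. Counting any annotated gene, 2387 members (94.9%) lay within 500 bp of an end. The same held for 80.2% of all merged regions and 87.9% of regions that MINU2 shared with BRM or SYD. The summit fell inside a protein-coding gene at 1818 members (72.3%), against 58.2% of all merged regions and 65.1% of the shared regions. BRM-only regions were close to the members in this, at 70.4%, and SYD-only regions stood at 16.4%.

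Most often the summit lay just inside the gene. The first 100 bp inward of the nearest end held 39.1% of the members, against 23.1% of regions called in all 6 lists, 6.85% of BRM-only and 4.94% of SYD-only regions. BRM-only regions were most frequent 200 to 300 bp inward, with 18.3% of their number, against 5.13% of the members. Many members had more than 1 gene end close by: 1185 (47.1%) had the ends of 2 or more protein-coding genes within 500 bp of the summit, against 26.6% of all merged regions and 30.4% of the regions MINU2 shared with BRM or SYD. Only 30 members (1.19%) had no annotated gene within 1000 bp, against 8.38%. These shares are descriptions without a test. The MINU2 peaks of the members were also narrower than those of the shared regions, as given above, and the part of peak width in the distances was not tested.

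**Figure D4:**
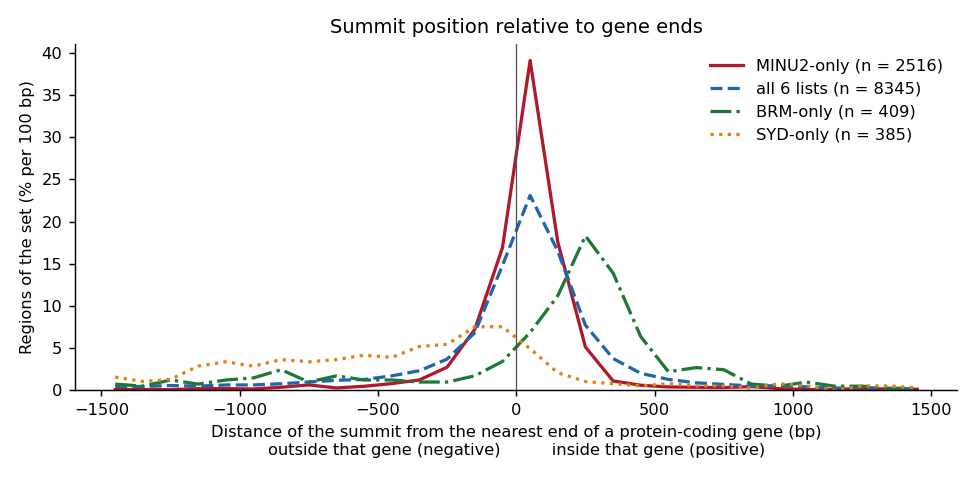
Distance of the summit from the nearest end of a protein-coding gene (bp, horizontal axis, positive inside that gene) and the share of each set of regions per 100 bp (%, vertical axis). The MINU2-only line peaks at 39.1% in the first 100 bp inside the gene, the BRM-only line at 18.3% between 200 and 300 bp, and the SYD-only line is highest in the last 200 bp outside the gene, at 7.53% per 100 bp.

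The share of MINU2-only regions differed between groups of genes. Of the 19203 merged regions in or within 1000 bp of a protein-coding gene, 2442, or 12.7%, were MINU2-only, and each group of genes is read against that share. The groups rest on words in the gene names, which miss many genes: a symbol was given for 38.4% of the genes at members, against 44.8% over all merged regions.

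Of the 502 merged regions at genes of transcription factor families, 19 (3.78%) were MINU2-only. No member lay at a gene named bHLH (0 of 27 regions), and 1 of 52 at WRKY, 2 of 76 at NAC, 3 of 91 at MYB, 3 of 93 at homeobox and 2 of 60 at zinc finger genes. MADS genes, with 5 of 42 (11.9%), were near the common share. The strongest of these members was chr5:9458837-9459510 at AGL26 (AT5G26880), placed in the MADS group by its symbol alone. It had MINU2 folds of 7.61 and 7.68 and peaks in BSH (8.44), SWI3A (12.6), SWP73B (6.46), BCL7A (4.37) and BCL7B (5.12) alone. SHH2, a homeodomain gene, followed with 7.27 and 7.15 at chr3:6312974-6313938. The 1 member in the ERF/AP2 group was ERF1-3, a translation release factor matched by its letters and no transcription factor.

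Several other groups were also under the common share. MINU2-only regions were 4 of 129 at cytochrome P450 genes (3.10%), 7 of 123 at auxin genes (5.69%), 8 of 122 at receptor-like kinase genes (6.56%), 10 of 120 at ubiquitin genes (8.33%) and 1 of 43 at heat shock genes (2.33%). The strongest auxin-group member was chr1:12118431-12119429 at SAR1, a nucleoporin gene found through auxin resistance, with folds of 6.84 and 7.45. At receptor-like kinases it was LYK3, with 3.15 and 3.29 at chr1:19295237-19295940 and peaks in BSH (3.56) and SWI3A (3.10) alone.

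Ribosomal protein and histone-related genes were over it. Ribosomal protein genes had 15 MINU2-only regions of 62 (24.2%). The strongest was chr3:16386029-16386874 at RPL9, with MINU2 folds of 8.02 and 7.68, BSH 11.2, SWI3A 11.4, SWP73B 6.42, BCL7A 4.83 and BCL7B 5.45. RPS10B followed with MINU2 folds of 5.96 and 5.46. Several encode proteins of organelle ribosomes by their names, such as PRPL28 (5.05 and 5.41) and PRPL11 (5.28 and 5.19).

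Genes with histone in their names had 16 MINU2-only regions of 67 (23.9%). They included histones and enzymes that modify them. ELO3, the acetyltransferase of the Elongator complex, had MINU2 folds of 4.99 and 5.45, with BSH 6.13 and SWI3A 8.79. HTA11, an H2A.Z histone, had 4.59 and 4.66, and HAF01, a TAF1-type acetyltransferase, 5.53 and 4.80. HDA6, a histone deacetylase with a part in gene silencing, had 2 regions with 3.36 and 4.24 in the stronger and 1.91 and 2.58 in the weaker. LDL1, a histone demethylase, had 3.21 and 3.27. The histone chaperone gene HIRA also had 2 regions, of 3.08 and 3.76 in the stronger and 1.71 and 2.28 in the weaker.

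The highest share was that of RNA polymerase genes, a group that was added after its values had been seen, as was the next one. There 16 of 34 merged regions (47.1%) were MINU2-only, at 15 genes, and 4 of the 34 were called in all 6 ATPase lists. RDR6, which makes double-stranded RNA for small RNAs, had MINU2 folds of 7.24 and 7.45 at chr3:18353319-18354162, with BSH 10, SWI3A 10.9, SWP73B 7.37 and both BCL7 lists 4.60. RDR2, which acts in RNA-directed DNA methylation, had 3.56 and 3.60, and RDR1 3.56 and 3.29. NRPB6A and NRPB6B, paralogs for a small subunit shared among polymerases, had 7.13 and 6.25 in the first gene and 4.11 and 5.72 in the other. NRPE7, a subunit of the plant-specific RNA polymerase V, had 2 regions, with 3.63 and 3.55 in the stronger. NRPA1, the largest subunit of RNA polymerase I, had 3.02 and 3.21, and NRPC2, of RNA polymerase III, 3.22 and 2.86.

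Embryo defective genes, named for mutants whose embryos fail, gave 70 MINU2-only regions of 257 (27.2%) at 66 genes. EMB3101 had the strongest, chr1:1671572-1672376, with MINU2 folds of 10.4 and 10.8, BSH 14.0, SWI3A 14.7, SWP73B 7.94, BCL7A 5.19 and BCL7B 5.26. EMB2730 followed with 8.06 and 8.26, and EMB1789 with 6.42 and 7.57. Photosystem and chlorophyll genes, with 11 of 70 (15.7%), lay near the common share. Their strongest member was chr4:11334029-11334750 at PSBQA, a gene of photosystem II, with MINU2 folds of 4.69 and 5.81, BSH 6.04 and SWI3A 5.55. The small groups of pentatricopeptide repeat genes (4 of 10) and disease resistance genes (3 of 12) held too few regions to read. The strongest of the pentatricopeptide members, chr3:7967610-7968493 at AT3G22470, had 6.37 and 7.62, and that of the disease resistance members, chr1:21173198-21173938 at WRR4, had 2.87 and 3.44 with a SWI3A peak of 2.68 and no BSH peak.

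**Figure D5:**
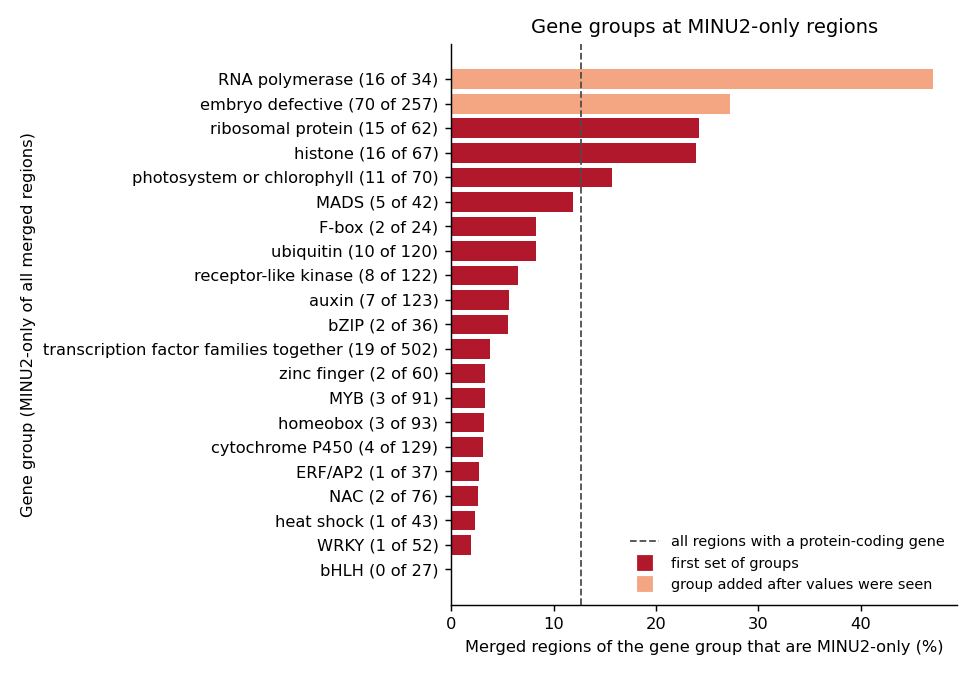
Share of the merged regions at each gene group that were MINU2-only (%, horizontal axis), for groups with at least 20 merged regions (vertical axis, with MINU2-only and all merged regions in brackets); the dashed line is the share over all regions with a protein-coding gene, 12.7%, and light bars are groups added after their values were seen. RNA polymerase genes stand highest at 47.1%, and bHLH genes lowest at 0%.

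Transfer RNA genes overlapped 67 MINU2-only regions (2.66%), against 1.94% of all merged regions and 2.54% of the regions that MINU2 shared with BRM or SYD, and so nearly as often in both kinds of MINU2 region. Small nuclear RNA genes overlapped 7 (0.278%, against 0.198%), small nucleolar RNA genes 7 (0.278%, against 0.493%) and microRNA genes 4 (0.159%, against 0.424%). Pseudogenes overlapped 33 (1.31%, against 0.733%), the strongest of them at chr5:20479283-20480004 with MINU2 folds of 8.87 and 8.12.

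At the 11 genes of SWI/SNF subunits found in the gene table, 4 of the 22 merged regions in or within 1000 bp (18.2%) were MINU2-only, a count too small to set apart from the common share of 12.7%. The gene of MINU2, CHR23 (AT5G19310), had its only merged region in this set: chr5:6497406-6499275, 1870 bp wide, with MINU2 folds of 5.70 in each list and a summit 27 bp inside the end of the gene. Peaks were also called there in BSH (4.28), SWI3A (4.48), SWP73B (2.95), BCL7A (2.94), BCL7B (2.80), SYD-N-GFP syd-5 brm-1 (2.29 and 2.19) and SWI3D-GFP swi3d-1 lists 2 and 3 (2.48 and 2.14). SWI3B, a scaffold subunit, had chr2:14228693-14229319 with 4.26 and 4.37, and SWI3D, listed as CHB3, had chr4:16465165-16465847 with 2.40 and 2.60. Near SWI3C lay chr1:7623825-7624744, with 4.60 and 4.54 and a peak of fold 3.45 in the SWI3C list, but its summit was 190 bp outside SWI3C and 36 bp inside the neighbouring gene OGG1, a DNA repair glycosylase. Each line carries a GFP fusion of its own subunit, so reads of that construct could not be told apart from binding at the subunit's own gene. This limit applies to the MINU2 lists at CHR23 and to the SWI3C list at SWI3C. BRM, SYD, SWI3A, BSH, ARP4, ARP7 and the MINU1 gene ATCHR12 had merged regions but 0 MINU2-only ones.

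The 10 strongest members split into 2 kinds. At 5 of them the summit lay inside a protein-coding gene and the region carried BSH and SWI3A at similar or higher folds. The region chr3:18947703-18948488 at AT3G51010 had MINU2 folds of 11.3 and 12.6, with BSH 9.95, SWI3A 12.1, SWP73B 8.79, BCL7A 3.40 and BCL7B 4.89 and no other list. At chr1:18715560-18716529, in AT1G50510 next to HIT1, they were 11.7 and 11.5, with SWI3A 15.6 and BSH 13.6. REV7, a gene of translesion DNA synthesis, had 8.44 and 9.59 at chr1:5673245-5674163, and AT1G55890 9.06 and 11.3 at chr1:20900794-20901678. The fifth, chr1:22477350-22478347 in AT1G61030 next to CPSF73-I, which encodes the nuclease that cuts messenger RNA ends, had 9.82 and 10 and peaks in 10 lists.

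The other 5 of the 10 had a peak in every one of the 10 other lists with organelle peaks, at nearly the same fold whatever the protein. At chr5:11732047-11732658 MINU2 had 5.82 and 5.48, BSH 5.82, SWI3A 6.39, SWI3C 5.91, SWP73A 6.10 and the 3 SWI3D-GFP swi3d-1 lists 5.31 to 6.10, and none of the 10 lists without organelle peaks was called. The others were chr5:11733469-11733933, chr4:3966353-3966721, chr4:3985948-3986494 and chr4:3972520-3973046. Of all members 16 (0.636%) had a peak in all 10 such lists, and 8 of the 16 had no annotated gene within 1000 bp. That count leaves out members called in most but not all of the 10. Examples are chr2:3239436-3242227 and chr2:3507467-3509618, each with a peak in 9 of the 10 and in 0 lists without organelle peaks. Without the 16, BSH stood at 95.2% and SWI3A at 96.4%.

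Single regions mark the ends of the range of sharing. The member with most other lists was chr3:1180773-1182020 at AT3G04443, with a peak in 17 of the 20, BSH at 6.53 and SWI3A at 5.99, against 2.02 and 2.27 in the BRM-GFP brm-1 syd-5 lists. It was followed by chr1:24695241-24695863 at AT1G66260 with 16 lists and chr1:6213047-6213855 at AT1G18060 with 15. Of the members with no other list, the strongest was chr1:25343017-25344677 at POLA2, a DNA polymerase alpha subunit gene, with folds of 4.20 and 2.98. The widest members were chr2:3239436-3242227 with 2792 bp, chr4:9491275-9493472 at RPP4, a gene of resistance to downy mildew, with 2198 bp, and chr2:3507467-3509618 with 2152 bp. RPP4 carried BSH at 1.74 and no SWI3A peak. It also had peaks in SWI3D-GFP swi3d-1 lists 2 and 3 (1.9 and 1.78) and in SWI3D-GFP swi3d-1 syd-5 lists 1 and 2 (2.14 and 2.25). The other 2 of the widest members carried SWI3A at 2.07 and 1.93 without BSH, and each had SWI3C, SWP73A and all 5 SWI3D lists at 1.88 to 2.87.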

How the data were processed

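Each of the 26 deposited peak lists holds 1 library, called per sample, in 10 columns without a header. The submitters' processing notes name fastp, Bowtie2, MACS2 2.0, deepTools, ChIPseeker and the build TAIR10, without roles. Peak names contain RmDup. The fold enrichment (a linear ratio), the −log10 p, the −log10 q and the score of each peak are values deposited by the authors, over a background not given in the sources used here. Fold and −log10 q were used to describe and rank peaks within a list, and the score and −log10 p were not used. Depending on the list, peaks began at a −log10 q of 1.303 to 1.489.

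Lists were read by file name. The reading by label was an alternative that kept the BRM and SYD lists of the rule. A region's summit is that of its strongest MINU2 peak or, where it was not called in both MINU2 lists, of its strongest peak in the 6 lists. Printed positions count from 1. BRM-only and SYD-only regions have a peak in both lists of that ATPase and in none of the other 4. Shares have Wilson 95% intervals, and the means of lists were compared by an exact two-sided permutation test that enumerates all splits. The labels call the replicates of a line biological. The permutation p-values compare lists of different proteins, and BSH and SWI3A have 1 list each, so they measure no replicate spread for these 2. Precision is limited by depth, which is unknown. Python 3.11.15, pandas 2.3.3, NumPy 2.4.6 and SciPy 1.17.1 were used, and the overlap steps were tested on simulated data.

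The gene table (RefSeq, TAIR10.1, 37899 genes on the 5 chromosomes, 27444 of them protein-coding) was used for names and distances only. The share of summits of regions called in all 6 lists within 250 bp of a gene end was 58.3% to 75.5% over 26 bins of 5 Mb. Distance to a gene start had been planned, and the nearer end was used because no strand is given. Sequence content and motifs were not analysed here. Named regions are the 10 strongest members by mean −log10 q percentile, the 3 with most other lists, the 3 strongest with none, the 3 widest, the strongest of each gene group and those at the rule's limits. Other members of gene groups were named after their values were seen. Members, gene groups and tests were chosen with earlier results of these data known. There were 0 columns that could not be mapped to a sample.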

Additional observations from a re-analysis of the deposited data

How the results depend on the processing

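Keeping peaks with −log10 q of 10 or more gave 3987 MINU2-only regions (40.9% of the MINU2 regions, median percentile 72.8), with BSH at 98.8%, SWI3A at 99.2% and 97.0% within 500 bp of a gene end. That percentile is a rank within the full lists, so removing the weaker peaks raises it by construction. With all 10 BRM- and SYD-named lists excluded there were 1511 (9.91%, percentile 46.8), and the difference between BSH and SWI3A and the 6 SWI3C and SWI3D lists left was 91.2 points (exact permutation p = 0.0714, the smallest possible). Read by label there were 147 (2.06%, percentile 26.3), with BSH at 21.8%, SWI3A at 49.0%, 70.1% near a gene end, and a difference of −2.14 points (exact permutation p = 0.933), which reversed the main result; the cause was not tested. With equal numbers of the strongest peaks (15375 in the 6 lists, 4383 in the other 20) BSH stood at 29.6%, SWI3A at 37.3% and gene ends at 96.1%, and the difference was 32.8 points, with fewer peaks per list by construction. Excluding BRM or SYD peaks within 500 bp left 15.8% of the MINU2 regions. Gene ends within 1000 bp gave 97.9%, and protein-coding genes alone 92.5%. The difference was 88.9 points among lists with organelle peaks (exact permutation p = 0.0714) and 87.9 points with lists of a line averaged (exact permutation p = 0.0556), where these are the smallest p possible.

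Leaving out each of the 6 lists of the rule in turn gave 2770 to 3121 regions, 17.4% to 18.9% of the MINU2 regions, a percentile of 43.2 to 51.7, BSH at 89.2% to 95.6%, SWI3A at 91.1% to 96.8% and gene ends at 93.4% to 95.2%. The difference was 82.4 to 88.2 points over these and over leaving out BSH (88.2) or SWI3A (87.0), where the smallest exact permutation p is 0.133. The other lists of the test were not left out singly. No paired analysis was possible because the test compares lists of different proteins and BSH and SWI3A have 1 list each.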

Other observations

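The 30 members with no annotated gene within 1000 bp carried other lists than the 2486 with a gene. BSH and SWI3A each had a peak at 73.3% of the 30, against 95.5% and 96.7% of the members with a gene. SWI3C and SWP73A each had one at 40.0%, against 4.83% and 2.17%, and BCL7B at 23.3%, against 83.9%. SYD-N-GFP syd-5 brm-1 list 1 had one at 43.3%, against 13.8%. Their MINU2 peaks were weaker at the median, at the 29.6th percentile against the 50.3rd, while 6 of the 30 (20.0%) were in the top 10% of MINU2 list 1, against 8.37% of the members with a gene.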
